A study of Mus musculus with 48 samples.

Results

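The SLC25 carriers described here are the protein coding genes of the deposited count table whose name starts with Slc25a, without Slc25a13, Slc25a15 and Slc25a20, and with a mean count of at least 10 over the 48 libraries. Of 54532 genes in the table, 47 were protein coding rows of that name. The rule left out 3 of these by name and 7 for their low count, so that 37 members remained, and all 37 also passed the filter on low counts used for the tests. Just inside the limit lay Slc25a53 with a mean count of 20.4 and Slc25a24 with 27.0. Just outside lay Slc25a27 with 9.63, and the other 6 had mean counts from 0.0208 (Slc25a41 and Slc25a54) to 2.38 (Slc25a2).

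The transcripts were measured by RNA sequencing in liver of wild-type male C57BL/6 mice aged 8 to 10 weeks. The control arm, 24 libraries, was kept on a steady cycle of 12 h light and 12 h dark, and the phase shift arm, also 24 libraries, had its light cycle advanced once by 6 h as a model of jet lag. Livers were taken at 4 h intervals between day 6 and day 7 after the shift, at zeitgeber times (ZT, hours after lights-on) 0, 4, 8, 12, 16 and 20, with 4 libraries per arm and time. The arms were read from sample titles and descriptions, because the treatment label reads the same in all 48 libraries. The design text names ZT0 and ZT12 alone for day 7, whereas the titles give 6 times. Whether ZT in the phase shift arm refers to the advanced cycle is not stated in the labels, nor that each library is 1 animal, so p-values measure the spread between these libraries.

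Carriers of the SLC25 family sit in the inner mitochondrial membrane, which is closed to most metabolites, and exchange or import nucleotides, phosphate, carboxylates, amino acids, cofactors and metals between cytosol and matrix. A few members work elsewhere, such as SLC25A17 in peroxisomes and SLC25A46 in the outer mitochondrial membrane. In the liver they link cytosolic steps of the making of fatty acids, glucose and heme and the disposal of nitrogen to steps in the matrix. They are made in the cytosol and enter mitochondria through the TOM complex, the small TIM chaperones and the TIM22 complex.

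Total counts ran from 15370303 to 19639753 per library, so that a count of 0 allows up to 3 counts, or 0.153 to 0.195 CPM (counts scaled to a common library size). All 6 hepatocyte markers were detected, with a summed level between 73800 and 142000 CPM. Counts on mitochondrially encoded transcripts had a median share of 7.11% and exceeded 10.1% in 7 libraries. In control these were replicate 1 of ZT4 and of ZT20 and replicate 2 of ZT8 and of ZT12, and in the phase shift arm replicate 1 of ZT0 and replicates 2 and 3 of ZT4. They are called the high-share libraries below. In whole liver, fewer cells of a type and less RNA per cell cannot be told apart.

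Levels between members were compared as FPKM, the deposited value per gene length and library size. The median over 48 libraries ran from 259 FPKM for Slc25a5 to 0.151 FPKM for Slc25a53, a ratio of 1720. The 6 highest members held between 65.1% and 78.4% of the summed FPKM of the 37, with a median of 71.1%. They were Slc25a5 (an ADP/ATP carrier) at 259, Slc25a39 (a carrier needed for mitochondrial glutathione) at 166, Slc25a47 (a carrier found mainly in liver) at 143, Slc25a1 (the citrate carrier) at 113, Slc25a10 (the dicarboxylate carrier) at 82.6 and Slc25a3 (the phosphate carrier) at 59.8. The 4 lowest were Slc25a24, an ATP-Mg/phosphate carrier, at 0.435, Slc25a40, a relative of Slc25a39, at 0.38, Slc25a36, a pyrimidine nucleotide carrier, at 0.265 and Slc25a53 at 0.151.

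**Figure D1:**
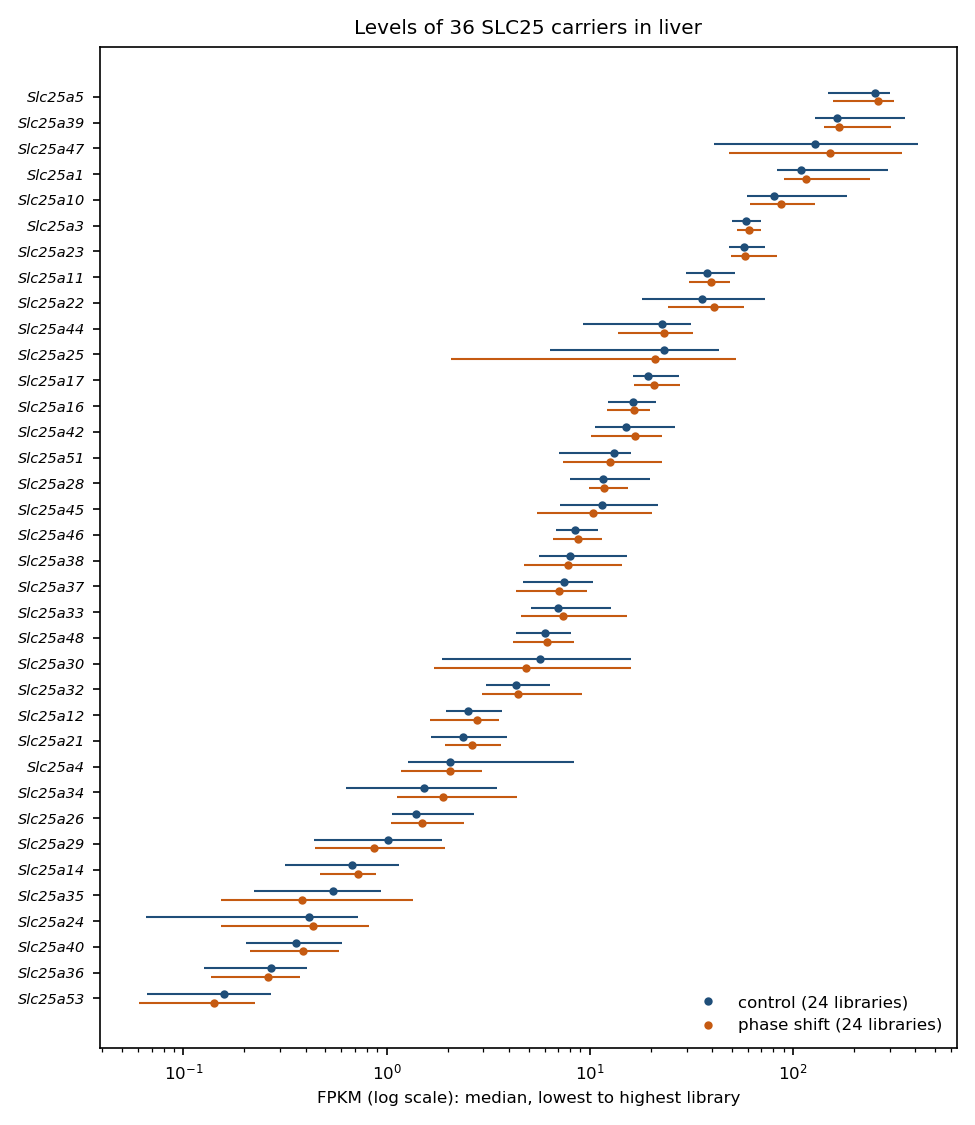
Level of 36 members in FPKM on a log axis, with the median (point) and the lowest to highest library (line) of the 24 libraries of each arm. Members span from 0.151 to 259 FPKM, and the ranges of the arms overlap for every member drawn.

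Near neighbours in this order did not separate. Slc25a3 ranged from 49.9 to 69.9 FPKM over the 48 libraries and Slc25a23, a calcium-regulated ATP-Mg/phosphate carrier that follows it, from 48.3 to 83.1. Slc25a47 had the widest range of the 6 highest members, from 40.9 to 413 FPKM, and Slc25a3 the narrowest. Slc25a25, another ATP-Mg/phosphate carrier, ran from 2.07 to 52.3 FPKM.

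Promoter sequence was at hand for 29 of the 37 members, with 38 annotated starts, in RefSeq on GRCm38.p6, the build that mm10 names. Both strands of the window from 250 bases before to 50 after the start were searched for letters known from clock and metabolic factors. The E-box CACGTG, bound by CLOCK and BMAL1 and by other factors, was in the windows of 4 members, Slc25a1, Slc25a14, Slc25a33 and Slc25a36. That was 13.2% of the members' windows, beside 7.15% of all 32851 windows. Overlapping windows of Slc25a14 hold the same site, which the members' share counts more than once. The cyclic AMP response element TGACGTCA was in those of Slc25a25 and Slc25a36 (5.26% of members' windows, 1.79% of all), and the NRF1 motif, searched as GCGC, any 2 bases and GCGC, in those of Slc25a3 and Slc25a10 (5.26% and 6.23%). The D-box TTATGTAA, the RORE core TAGGTCA, the ERR element TCAAGGTCA and the PPAR element, searched as 2 copies of AGGTCA with 1 base between, had no match in members' windows and were in 0.938%, 2.61%, 0.423% and 0.0396% of all windows. A match of letters is no binding site. The 250 bases before the start are given for Slc25a11, which had the smallest p for rhythm of all members, for Slc25a45, which differed between the arms, and for 3 of the members whose windows hold a match, with motif letters in capitals. Slc25a45 and these 3 were chosen after their values were seen, and for Slc25a25 1 of 3 starts is given.
Slc25a11, chr11:70647040-70647289, minus strand: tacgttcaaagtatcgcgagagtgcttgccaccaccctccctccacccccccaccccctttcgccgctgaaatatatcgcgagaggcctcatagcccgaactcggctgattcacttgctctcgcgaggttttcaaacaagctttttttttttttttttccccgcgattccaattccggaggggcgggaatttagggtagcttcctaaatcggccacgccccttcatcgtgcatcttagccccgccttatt
Slc25a45, chr19:5877572-5877821, plus strand: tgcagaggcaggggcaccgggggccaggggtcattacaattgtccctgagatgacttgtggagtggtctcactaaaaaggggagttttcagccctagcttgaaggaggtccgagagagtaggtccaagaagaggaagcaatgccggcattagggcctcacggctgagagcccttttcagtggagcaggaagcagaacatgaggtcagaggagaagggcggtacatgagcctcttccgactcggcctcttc
Slc25a1, chr16:17928220-17928469, minus strand: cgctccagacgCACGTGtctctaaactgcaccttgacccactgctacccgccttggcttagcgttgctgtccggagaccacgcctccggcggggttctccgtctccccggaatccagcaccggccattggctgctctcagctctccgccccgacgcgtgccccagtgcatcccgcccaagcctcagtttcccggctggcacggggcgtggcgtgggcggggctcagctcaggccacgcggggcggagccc
Slc25a36, chr9:97111042-97111291, minus strand: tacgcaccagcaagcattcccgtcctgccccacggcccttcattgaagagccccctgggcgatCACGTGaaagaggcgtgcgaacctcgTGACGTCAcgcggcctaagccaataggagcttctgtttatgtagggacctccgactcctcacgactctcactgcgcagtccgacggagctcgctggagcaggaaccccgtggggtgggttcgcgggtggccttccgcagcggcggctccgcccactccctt
Slc25a25, chr2:32424067-32424316, minus strand: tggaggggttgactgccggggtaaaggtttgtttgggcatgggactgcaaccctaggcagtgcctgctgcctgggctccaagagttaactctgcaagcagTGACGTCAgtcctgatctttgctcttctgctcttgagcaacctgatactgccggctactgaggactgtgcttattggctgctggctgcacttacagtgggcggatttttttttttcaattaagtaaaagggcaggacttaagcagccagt

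The first question was which members changed over the day. Rhythm was tested as a 24 h cosine and sine in each arm with edgeR's quasi-likelihood test, adjusted by Benjamini-Hochberg over 14555 genes. In control 17 of the 37 members (45.9%) were called rhythmic at an adjusted p under 0.05, beside 27.3% of all genes, and after the phase shift 16 (43.2%) beside 28.2%. No test of that excess was made. Counts for groups of carriers below stand beside the same shares, without a test. Both arms called 8 members, control alone 9, the phase shift arm alone 8, and 12 were called in neither. A call in 1 arm alone does not show a difference between arms, which was tested separately. No rule set in advance chose the times printed for single members below, so a lack of overlap between them is a description. The control count was 11 without control ZT12 replicate 2, a high-share library, and 13 without all 7 of them, where the phase shift arm gave 19. Calls over all genes moved the same way. In the main fit they were 3975 in control and 4106 after the shift. They were 3313 in control without that replicate, and 3065 and 4613 in the arms without all 7.

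Carriers of di- and tricarboxylates and keto acids were rhythmic in control in 4 of 4 cases and after the phase shift in 1 of 4. Slc25a11 (ENSMUSG00000014606, chr11:70644196-70647479, minus strand, mm10) encodes the oxoglutarate/malate carrier, which works in the malate-aspartate shuttle, and its promoter stands above. In control its 4 libraries held 68.6, 64.1, 67.7 and 65.9 CPM at ZT0, and 94.9, 100, 89.9 and 111 CPM at ZT12. In the phase shift arm they held 70.5, 78.1, 69.2 and 66.5 CPM at ZT0, and 99.4, 103, 104 and 97.5 CPM at ZT12. In each arm the ZT12 libraries all lay above the ZT0 libraries, at times picked from the values. The fitted amplitude, the log2 distance from mean to peak, was 0.28 in control (SE 0.027, edgeR adjusted p = 4.05e-07) and 0.20 after the shift (SE 0.038, adjusted p = 0.000147). The gene overlaps Rnf167 on the other strand (mean counts 1420 and 559), and whether the counting used strand is not given in the sources used here.

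Slc25a1, which exports citrate for fatty acid synthesis, Slc25a10, which exchanges malate and succinate for phosphate, and Slc25a21, the oxodicarboxylate carrier of lysine and tryptophan breakdown, were called in control and not after the shift. Slc25a10 had a control amplitude of 0.40 with a peak at ZT 9.95 (edgeR adjusted p = 0.000125). Its control libraries at ZT8 held 297, 632, 362 and 294 CPM and at ZT20 218, 259, 237 and 211 CPM. The value of 632 CPM belongs to ZT8 replicate 2, and the value of 585 CPM at ZT12 to replicate 2, both of them high-share libraries. Within groups, each doubling of the mitochondrial share went with 0.61 more log2 units of Slc25a10 (SE 0.078) and 0.73 of Slc25a1 (SE 0.098). The slope was negative for 16 of the 37 members (43.2%, beside 51.2% of all genes). It was -0.41 for Slc25a12 (SE 0.073) and -0.44 for Slc25a44 (SE 0.107). Without the 7 high-share libraries Slc25a10 was called in the phase shift arm too (adjusted p = 0.000706), and Slc25a1 lost its control call (adjusted p = 0.0864). Slc25a1 also lost it without control ZT8 replicate 2 (adjusted p = 0.14) and control ZT12 replicate 2 (adjusted p = 0.0501), and in a test of any difference among the 6 times (adjusted p = 0.134).

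Among amino acid carriers, 2 of 5 members were rhythmic in control and 4 of 5 after the shift. Slc25a22, a mitochondrial glutamate carrier (chr7:141429744-141437892), was high in the labelled light phase. Its control libraries held 332, 434, 362 and 259 CPM at ZT8 and 181, 146, 157 and 158 CPM at ZT16. After the shift they held 217, 251, 342 and 335 CPM at ZT8 and 205, 348, 227 and 207 CPM at ZT16. At these picked times the control libraries did not overlap, whereas those of the phase shift arm did. Its amplitude was 0.57 in control (SE 0.084, edgeR adjusted p = 8.02e-06) and 0.33 after the shift (SE 0.09, adjusted p = 0.0126).

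Slc25a12, the aspartate/glutamate carrier of excitable tissues and a partner of Slc25a11 in the malate-aspartate shuttle, had an amplitude of 0.18 in control (edgeR adjusted p = 0.0432) and 0.30 after the shift (adjusted p = 0.00138). Slc25a44, which imports branched-chain amino acids, and Slc25a29, a carrier of basic amino acids, were called only in the phase shift arm, with amplitudes of 0.41 (adjusted p = 0.000942) and 0.61 (adjusted p = 0.00126). For Slc25a29 the control amplitude of 0.42 just missed the threshold (adjusted p = 0.0522). Slc25a38, the glycine carrier of heme synthesis, was called in neither arm. It was called in the phase shift arm without the high-share libraries (adjusted p = 0.00119), with the mitochondrial share as a covariate (adjusted p = 9.18e-06) and in a test of any difference among the 6 times (adjusted p = 0.0297).

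The cofactor and nucleotide carriers had 3 of 9 members rhythmic in control and 4 of 9 after the shift. Slc25a51 (chr4:45395923-45408766), the mitochondrial NAD carrier, held 56.4, 43.7, 39.4 and 51.4 CPM in control at ZT0, and 86.1, 85.3, 84.5 and 84.7 CPM at ZT12. In the phase shift arm it held 65.8, 52.9, 51.7 and 41.4 CPM at ZT4, and 123, 119, 85.6 and 83.9 CPM at ZT12. These low and high times did not overlap in either arm, but they were picked from the values and differ between the arms. Its amplitude was 0.30 in control (edgeR adjusted p = 0.0144) and 0.47 after the shift (adjusted p = 2.17e-05).

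Slc25a32 (chr15:39091231-39112716), a carrier for folate and FAD, was the most firmly rhythmic member of the phase shift arm, with an amplitude of 0.55 (SE 0.077, edgeR adjusted p = 6.21e-07), and was not called in control (0.21, adjusted p = 0.0909), where a test of any difference among the 6 times did call it (adjusted p = 0.0226). Its phase shift libraries held 18.9, 18.2, 20.9 and 24.8 CPM at ZT0 and 47, 56, 40.6 and 35 CPM at ZT12. Its control libraries at those times held 24.9, 19, 21 and 25.5 CPM, and 33.3, 28.7, 31.7 and 26.8 CPM. At ZT12 all 4 phase shift libraries lay above all 4 control libraries, as in 2.4% of all genes. The difference of rhythm between arms did not pass (edgeR adjusted p = 0.161). Slc25a36 was called in control alone and Slc25a16 in the phase shift arm alone. Slc25a17, Slc25a26 (the S-adenosylmethionine carrier), Slc25a33 (a pyrimidine nucleotide carrier) and Slc25a42 (the coenzyme A carrier) were called in neither. Slc25a26 is overlapped on the other strand by Lrig1, which had the higher mean count (517 and 122).

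**Figure D2:**
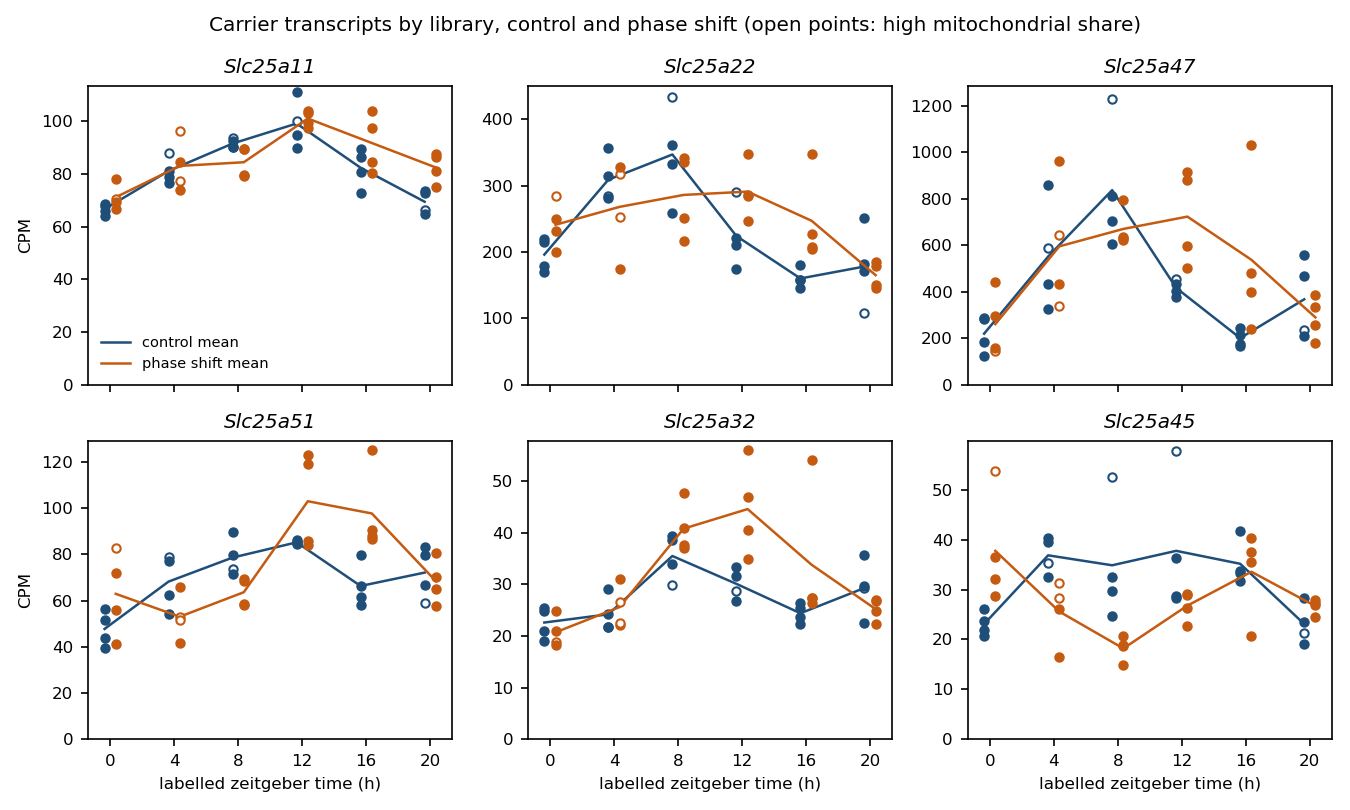
Level of 6 members in CPM against labelled zeitgeber time, with each library as a point, group means as lines, and open points for the 7 high-share libraries. The 3 highest values of Slc25a45 (57.8, 53.8 and 52.7 CPM) are open points.

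The ADP/ATP, phosphate and ATP-Mg/phosphate carriers had 1 of 6 members rhythmic in control and 2 of 6 after the shift. Slc25a5 had small amplitudes, with a value of 0.17 in control (edgeR adjusted p = 0.0378) and 0.15 after the shift (adjusted p = 0.0706). Slc25a23 had an amplitude of 0.20 in the phase shift arm (adjusted p = 0.00283), a call lost in the test of any difference among the 6 times (adjusted p = 0.0519), and Slc25a25 one of 0.78 (adjusted p = 0.0219). Slc25a3, Slc25a4 and Slc25a24 were called in neither arm. Without the high-share libraries the phase shift arm also called Slc25a5 (adjusted p = 0.0174) and Slc25a3 (adjusted p = 0.0325), and control called Slc25a4 (adjusted p = 0.0492). The test of any difference among the 6 times called Slc25a4 in control (adjusted p = 0.00727). Both of these calls include control ZT0 replicate 3, with 19.9 CPM of Slc25a4 beside 4.9, 7.75 and 5.84 CPM in the others of that group. That library also held muscle transcripts, given below, and its part in these calls was not tested.

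In the group of glutathione and metal carriers, 3 of 4 were rhythmic in control and 1 of 4 after the shift. Slc25a37, mitoferrin 1, which brings iron into the matrix, held 30.7, 37.9, 36.1 and 28.7 CPM in control at ZT4 and 56.2, 57.3, 63.6 and 61 CPM at ZT16. These picked times did not overlap. The control amplitude was 0.37 (SE 0.058, edgeR adjusted p = 0.000141), whereas the phase shift arm had 0.18 (adjusted p = 0.101). Slc25a28, mitoferrin 2, was called in control alone, with 0.21. Slc25a40 was called in both arms, with 0.35 (adjusted p = 0.00486) and 0.43 (adjusted p = 0.000391), at levels between 1.74 and 5.08 CPM in control. Slc25a39 was called in neither arm, and in both without the high-share libraries (adjusted p = 0.0113 and 0.0187). Each doubling of the mitochondrial share went with 0.64 more log2 units of it (SE 0.064).

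The 2 relatives of the uncoupling proteins were not rhythmic in control. Slc25a30 was called after the shift, with an amplitude of 0.77 (SE 0.227, edgeR adjusted p = 0.0269), and Slc25a14 in neither arm. Slc25a30 varied widely within groups, with 21, 67.4, 68.8 and 56.5 CPM at phase shift ZT4 and 7.95, 44.2, 8.83 and 15.5 CPM at ZT16.

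Of the 7 members whose substrate is less settled, 4 were rhythmic in control and 3 after the shift. Slc25a47 (ENSMUSG00000048856, chr12:108836046-108856815, plus strand) had the largest control amplitude of the called members, 0.83 (SE 0.184, edgeR adjusted p = 0.00226), and 0.82 after the shift (SE 0.171, adjusted p = 0.00465). It held 811, 1230, 605 and 706 CPM in control at ZT8 and 243, 213, 174 and 168 CPM at ZT16. After the shift it held 624, 636, 793 and 629 CPM at ZT8 and 480, 1030, 399 and 238 CPM at ZT16. Its neighbour on the minus strand is Slc25a29 (chr12:108825873-108835883). Slc25a45 was called in both arms, Slc25a34 and Slc25a48 in control alone, and Slc25a46, which acts in mitochondrial shape and lipid handling, in the phase shift arm alone (0.22, adjusted p = 0.000794). In the test of any difference among the 6 times control called Slc25a46 too (adjusted p = 0.0391). Slc25a35 and Slc25a53 were called in neither.

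The next comparison was of the time of the peak. In control 13 of 17 called members (76.5%) peaked in the labelled light phase, beside 55.6% of all called genes, and after the shift 7 of 16 (43.8%) beside 48.2%. These sets have only 8 members in common, so the shares do not follow the same genes. Control peaks of Slc25a51 (ZT 11.39, SE 0.91) and Slc25a48 (ZT 11.54, SE 0.98) lay closer to the limit at ZT12 than their SE. All 8 members called in both arms had a later fitted peak after the shift, with a median of 2.73 h. Differences were taken the shorter way around the 24 h day. Slc25a45, at 10.32 h (SE 1.65), was close to the opposite phase, where later and earlier cannot be told apart. Slc25a40 moved by 0.29 h (SE 1.1), less than its error. For the 2066 genes called in both arms the median was -0.14 h, and 52.4% peaked earlier. Arntl, Dbp, Per2 and Nr1d1, genes of the core clock and its output, had differences of -0.40, -0.83, 0.38 and 0.05 h. In level, 1 of these 4 was called between the arms at ZT4, higher after the shift, beside 0.117% of all genes. None was called at another time or for the difference of rhythm. Members share the same libraries, so their peaks are not independent of each other, and the median was not tested.

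Slc25a11 moved from ZT 10.47 to ZT 12.6, by 2.13 h (SE 0.8). Slc25a22 moved from ZT 6.46 to ZT 8.54, by 2.08 h (SE 1.2). Slc25a47 moved from ZT 7.49 to ZT 9.88, by 2.39 h (SE 1.16). Slc25a22 stood at 3.41 h without the 7 high-share libraries and at 1.46 h without phase shift ZT16 replicate 2.

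Slc25a51 moved by 3.08 h (SE 1.13), from ZT 11.39 to ZT 14.47. For Slc25a12 the difference was 4.52 h (SE 1.53), with a phase shift peak at ZT 14.94. The fitted peaks of Slc25a45 lay at ZT 9.92 in control and ZT 20.24 after the shift, or 10.32 h (SE 1.65). Its phase shift libraries held 27.3, 27, 27.9 and 24.6 CPM at ZT20, all below the 4 libraries of that arm at ZT0. That fitted peak of Slc25a45 is thus not at its highest sampled time. Slc25a40 did not move beyond its error, with 0.29 h (SE 1.1), and it was earlier, by -0.21 h, without control ZT16 replicate 3. Without the 7 high-share libraries all 8 were later, with a median of 2.45 h, Slc25a45 stood at 8.18 h and Slc25a40 at 0.02 h.

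**Figure D3:**
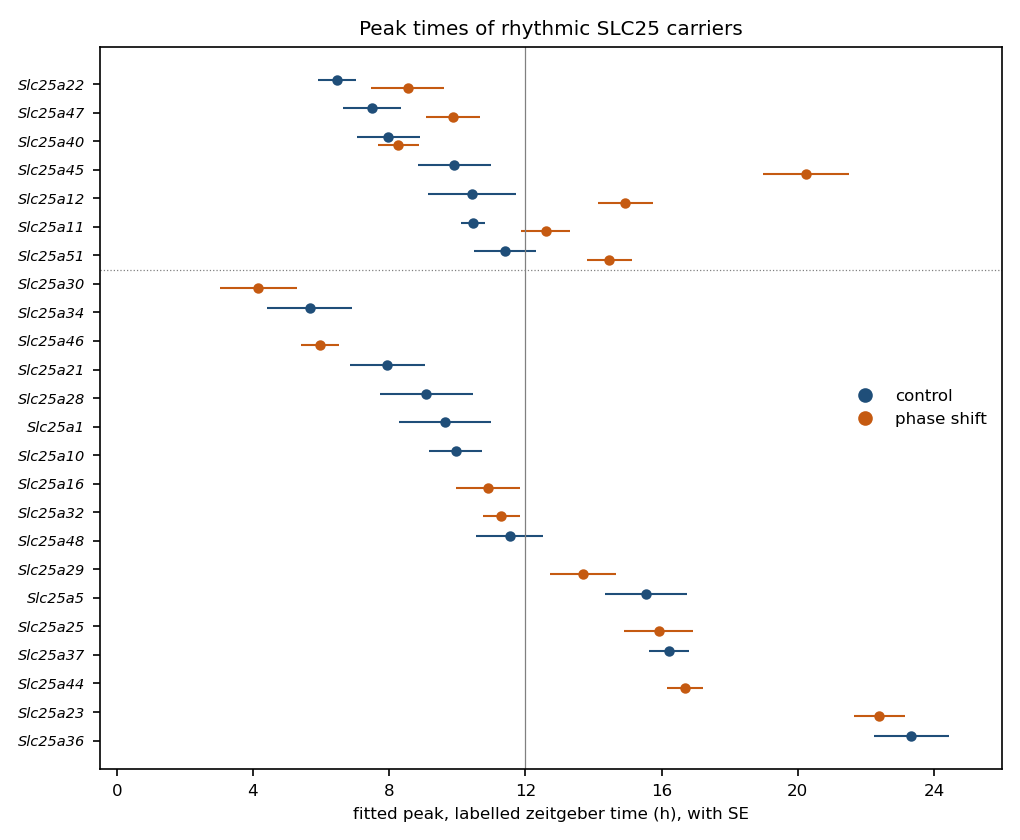
Fitted peak, in labelled zeitgeber time, with its SE, of the members drawn that were called rhythmic in control (blue) or after the phase shift (orange). The 7 members above the dotted line were called in both arms and peaked later after the shift, by 0.29 to 10.32 h. Differences were taken the shorter way around the day. The vertical line marks 12 h of labelled time, which is lights-off in control.

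The test of the difference of rhythm itself called 1 of the 37 members, Slc25a45 (edgeR adjusted p = 0.0467), or 2.7% beside 0.186% of all genes. The call was lost with limma-voom (adjusted p = 0.078), without a filter on low counts (adjusted p = 0.0527) and with the replicate number as a block (adjusted p = 0.0604). At an unadjusted p under 0.05 it found 17 members (45.9%) beside 19.3% of all genes. Among the other 7 members called in both arms the adjusted p ran from 0.166 for Slc25a12 to 0.876 for Slc25a40, with 0.185 for Slc25a51 and 0.371 for Slc25a47, so the later peaks of these single genes did not pass. The test for any difference of the time course also called 1, again Slc25a45 (adjusted p = 0.0384), beside 0.137% of all genes, with 10 members (27%) at an unadjusted p under 0.05 beside 11%. That call was lost with limma-voom (adjusted p = 0.0584) and with the block (adjusted p = 0.0588).

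Slc25a45 (ENSMUSG00000024818, chr19:5877808-5885766, plus strand) is a carrier expressed in liver whose promoter window held none of the motifs searched. At ZT0 its control libraries held 23.8, 21.9, 26.1 and 20.7 CPM and its phase shift libraries 53.8, 36.5, 32.2 and 28.8 CPM. At ZT4 the control libraries held 35.3, 40.3, 39.5 and 32.5 CPM and the phase shift libraries 26.2, 31.3, 28.3 and 16.5 CPM. At ZT8 the values were 24.7, 52.7, 32.5 and 29.7 CPM in control and 20.6, 14.8, 18.7 and 18.8 CPM after the shift. Without overlap the phase shift arm was thus above control at ZT0 and below it at ZT4 and ZT8. All genes behaved like that in 1.76% of cases at ZT0, 2.19% at ZT4 and 2.38% at ZT8.

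In the labelled dark phase the arms of Slc25a45 overlapped. At ZT12 control held 28.4, 57.8, 36.4 and 28.7 CPM and the phase shift arm 22.8, 29, 26.4 and 29.1 CPM. At ZT16 control averaged 35.2 ± 4.46 CPM (SD, n = 4) and the phase shift arm 33.6 ± 8.7, and at ZT20 they averaged 23.1 ± 4.01 and 26.7 ± 1.47. The log2 difference, phase shift minus control, was 0.71 at ZT0 (SE 0.213, edgeR adjusted p = 0.621), -0.53 at ZT4 (SE 0.213, adjusted p = 0.387), -0.94 at ZT8 (SE 0.215, adjusted p = 0.0581) and -0.49 at ZT12 (SE 0.213, adjusted p = 0.806). No single time passed. At ZT12 the difference was -0.21 without control ZT12 replicate 2. Without the 7 high-share libraries it was -0.82 at ZT4, and with the mitochondrial share as a covariate 0.42 at ZT0.

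The 3 highest libraries of Slc25a45, control ZT12 replicate 2, phase shift ZT0 replicate 1 and control ZT8 replicate 2, were all high-share libraries (15.1%, 19.9% and 12.8%), and the highest of the other libraries held 41.8 CPM. Within groups each doubling of the share went with 0.56 more log2 units of the gene (SE 0.105). Without the 7 high-share libraries the adjusted p was 0.256 for the rhythm difference and 0.0582 for the time course. With the share as a covariate it was 0.015 and 0.00384. The 6 Kupffer cell markers summed to between 11.8 and 244 CPM in control at ZT8 and between 87.5 and 462 CPM after the shift, none at 0, and their part in the result was not tested.

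Leaving out 1 library kept the rhythm difference of Slc25a45 past the threshold in 21 of 48 cases. It was lost without any 1 of the 4 control libraries of ZT0 or ZT4, control ZT8 replicate 2, ZT12 replicate 2, ZT16 replicates 1 to 3 or ZT20 replicates 1 to 3, and without phase shift ZT0 replicates 1 to 3, any of ZT8, ZT12 replicates 1 and 2, or ZT16 replicates 3 and 4, with adjusted p from 0.0501 to 0.0986. The time course difference passed in 28 of 48 cases. It was lost without control ZT0 replicates 1 to 4, ZT4 replicates 2 and 3, ZT8 replicate 2, ZT16 replicate 3 or ZT20 replicates 1 and 3, and without phase shift ZT0 replicates 1 and 2, any of ZT8, ZT12 replicates 1 and 3, or ZT20 replicates 1 and 2, with adjusted p from 0.0504 to 0.113.

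**Figure D4:**
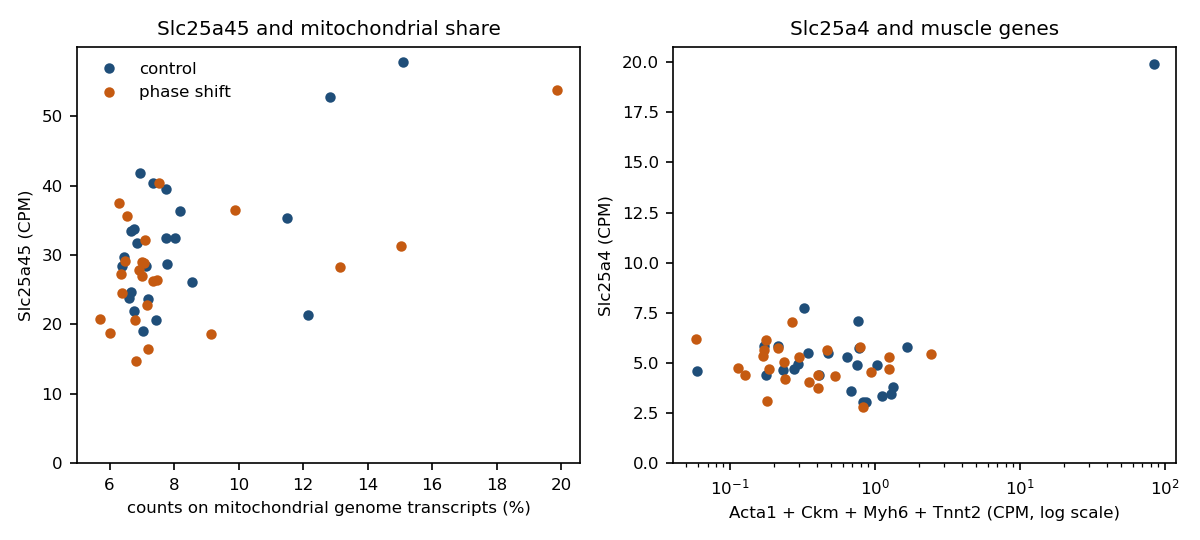
Left, Slc25a45 in CPM against the percentage of counts on transcripts of the mitochondrial genome, and right, Slc25a4 in CPM against the summed CPM of 4 muscle genes on a log axis, for 48 libraries coloured by arm. The 3 highest Slc25a45 libraries lie at shares of 12.8% to 19.9%, and 1 control library stands apart at 83.6 CPM of muscle genes and 19.9 CPM of Slc25a4.

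The last comparison was of the arms at each time. At an adjusted p under 0.05, edgeR called 0 of the 37 members at every time and for the average difference, beside 0% of all genes at ZT0, 0.117% at ZT4, 0.131% at ZT8, 0% at ZT12, 0% at ZT16, 0.295% at ZT20 and 0% for the average. At an unadjusted p under 0.05 it found 8 members (21.6%) at ZT0 beside 7.37% of all genes, 8 (21.6%) at ZT4 beside 9.21%, and 5 (13.5%) at ZT8 beside 11.7%. In the labelled dark phase it found 3 (8.11%) at ZT12 beside 4.98%, 7 (18.9%) at ZT16 beside 4.42%, and 4 (10.8%) at ZT20 beside 7.33%. For the average it found 5 (13.5%) beside 6.45%. Limma-voom called 0 members at every time, and DESeq2 called 0 except 1, Slc25a45 at ZT8 (adjusted p = 0.0119). Over all genes, the 43 calls of edgeR at ZT20 became 0 without phase shift ZT20 replicate 2 or any 1 control library of ZT20. They became 100, 101 and 87 without phase shift ZT20 replicates 1, 3 and 4.

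By sign, 26 members (70.3%) lay above control at ZT0 beside 50.7% of all genes, and 12 (32.4%) at ZT8 beside 48.2%. At ZT8 25 lay below, and the median log2 differences at ZT0 and ZT8 were 0.09 and -0.12. The medians of all genes at those times were 0.005 and -0.015. At ZT16, 24 lay above control (64.9% beside 51.1% of all genes, median 0.09). Averaged over the day, 27 did (73% beside 49.3% of all genes, median 0.03). All 4 carboxylate and keto acid carriers lay below control at ZT8, and all 5 amino acid carriers lay below it at ZT4 and ZT8. In the other direction, all 4 of the former lay above control at ZT0, at ZT20 and for the average. All 5 of the latter lay above it at ZT0. None of these 9 passed the threshold at any time. Of all genes, 49.3% lay above control at ZT4, 48.2% at ZT8 and 50.7% at both ZT0 and ZT20.

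**Figure D5:**
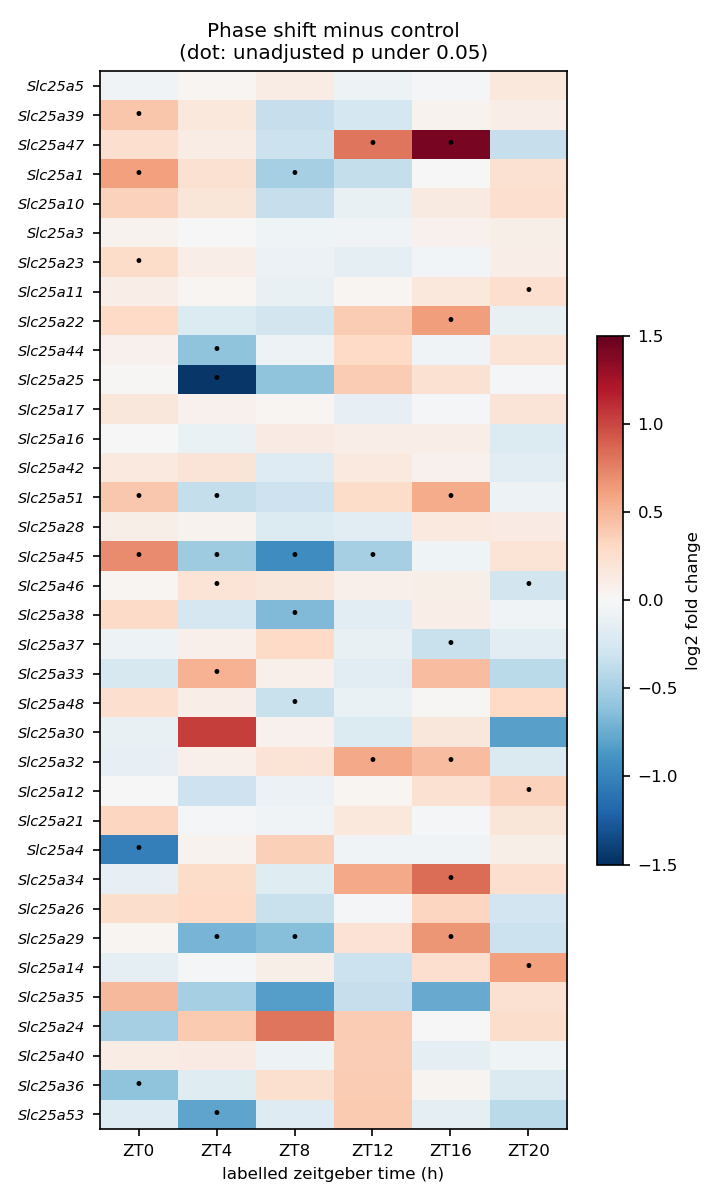
Log2 fold change, phase shift minus control, of 36 members (rows, by falling median FPKM) at the 6 labelled times (columns), with dots at an unadjusted p under 0.05. The colour scale ends at 1.5, and the extreme values are -1.46 for Slc25a25 at ZT4 and 1.43 for Slc25a47 at ZT16.

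Slc25a4, the ADP/ATP carrier of heart and muscle, had the smallest p at ZT0. Its control libraries held 4.9, 7.75, 19.9 and 5.84 CPM and its phase shift libraries 2.79, 5.03, 5.34 and 5.64 CPM, so the difference rests on 1 library. The log2 difference was -1.03 (SE 0.286, edgeR adjusted p = 0.621) and -0.39 without control ZT0 replicate 3. That library also held 67.3 CPM of Acta1, skeletal muscle actin, and 16.3 CPM of Ckm, muscle creatine kinase. In the other 47 libraries these reached at most 0.397 and 0.222 CPM, and Slc25a4 ran from 2.79 to 7.75 CPM. The sum of the 4 muscle markers was 83.6 CPM there and between 0.0586 and 2.44 CPM elsewhere, with Myh6 at 0 in that group, and its part in the result was not tested.

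Slc25a25 had the largest difference at ZT4. Control held 302, 102, 157 and 296 CPM and the phase shift arm 115, 89.5, 16.3 and 90.5 CPM, which overlapped by 1 library, and the log2 difference was -1.46 (SE 0.46, edgeR adjusted p = 0.208). The promoter of Slc25a25 with the cyclic AMP response element is among those above. Slc25a44 at the same time held 77.3, 114, 84.9 and 81.2 CPM in control and 77.8, 50.6, 49.3 and 56.6 CPM after the shift (-0.61, SE 0.191, adjusted p = 0.206). The lowest values of both genes in the phase shift arm at ZT4 were in replicate 3, 1 of the high-share libraries. Without all 7 of these the difference of Slc25a25 was -0.86 (adjusted p = 0.69).

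At ZT8 the 4 control libraries of Slc25a38 averaged 24.9 ± 11.6 CPM (SD, n = 4), and those of the phase shift arm 15.7 ± 3.19, with a log2 difference of -0.66 (SE 0.229, edgeR adjusted p = 0.276). Without control replicate 2 the difference was -0.29. The control mean includes 41.7 CPM in replicate 2, a high-share library, beside 15.5, 20 and 22.4 CPM in the others. Slc25a1 stood at 344 ± 191 and 243 ± 46.4 CPM (-0.50, adjusted p = 0.425), with 630 CPM in that same control library and 258, 238 and 250 CPM in the others of control. Slc25a1 at ZT0 had the opposite sign (0.62, SE 0.247, adjusted p = 0.657), with 525 CPM in phase shift replicate 1, the library with the largest mitochondrial share, and was 0.27 without it.

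At ZT12 and ZT16 the members with the smallest p were mostly above control. Slc25a32 had a log2 difference of 0.57 at ZT12 (SE 0.17, edgeR adjusted p = 0.806), and Slc25a47 one of 0.80 (SE 0.38, adjusted p = 0.806), where control averaged 416 ± 34.8 CPM (SD, n = 4) and the phase shift arm 723 ± 206. At ZT16 Slc25a51 held 61.5, 57.9, 66.1 and 79.6 CPM in control and 86.6, 125, 90.5 and 88.1 CPM after the shift, without overlap (0.56, SE 0.169, adjusted p = 0.669). With the ZT16 values given above, Slc25a47 stood at 1.43 (SE 0.386, adjusted p = 0.526) and Slc25a22 at 0.62 (SE 0.201, adjusted p = 0.771). The 4 phase shift libraries of 4 members, Slc25a22, Slc25a51, Slc25a32 and Slc25a34, all lay above control at ZT16 (10.8% of members beside 2.56% of all genes). Phase shift ZT16 replicate 2 was the highest library of each, with 348, 125, 54.1 and 11.8 CPM, and of Slc25a47 with 1030 CPM. Without it the log2 difference at ZT16 was 0.90 for Slc25a47 and 0.41 for Slc25a22.

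At ZT20 control libraries of Slc25a11 averaged 69.4 ± 4.39 CPM (SD, n = 4) and phase shift libraries 82.4 ± 5.66, without overlap, as in 1.76% of all genes (0.25, SE 0.088, edgeR adjusted p = 0.408). Slc25a46 was lower by sign (-0.28, SE 0.099, adjusted p = 0.408) and Slc25a12 higher (0.35, SE 0.156, adjusted p = 0.625), with 0.23 when the mitochondrial share was a covariate. For the average over the day the 5 members with an unadjusted p under 0.05 were Slc25a32 (0.16), Slc25a34 (0.27), Slc25a47 (0.32), Slc25a11 (0.07) and Slc25a45 (-0.19), with adjusted p from 0.677 to 0.758.

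Genes that act with the carriers were read in the same fits. Of all genes, 27.3% were called rhythmic in control and 28.2% after the shift, and list counts were not tested against these shares. Of 12 tested genes for the import and insertion of carriers, 6 were rhythmic in control and 3 after the shift. In control the called ones were Tomm40, Tomm22, Tomm5, Timm9, Timm10 and Agk, of which the first 5 peaked between ZT 9.87 and ZT 11.88. After the shift they were Tomm20, Timm29 and Agk. Of 10 enzymes served by the carriers 5 were called in control and 3 after the shift. Gpd2, the mitochondrial enzyme of the glycerol phosphate shuttle, peaked at ZT 7.14 and ZT 10.56, and Got1, the cytosolic transaminase of the malate-aspartate shuttle, at ZT 6.55 and ZT 13.41.

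Among 13 tested transporters of other families 5 and 6 were called. The strongest was Mcu, the pore of the calcium uniporter, at ZT 1.05 and ZT 0.81 (edgeR adjusted p = 3.09e-08 and 7.68e-12). Vdac2, a pore of the outer membrane, peaked at ZT 10.96 and ZT 12.14. Others called in both arms peaked earlier after the shift. Abcb10, an ABC transporter of the inner membrane, went from ZT 18.65 to ZT 16.62, Sfxn1, a serine transporter, from ZT 16.14 to ZT 15.88, and Agk, a part of the TIM22 complex, from ZT 4.14 to ZT 3.28. Of 7 regulators of mitochondrial genes 2 and 3 were called, among them Esrra, a nuclear receptor, at ZT 12.73 and ZT 14.29, and its coactivator Ppargc1b at ZT 8.19 and ZT 10.11. The 3 tested family members under other symbols had 0 and 1 called. In none of these lists did a gene pass between arms at a single time, for the average or for rhythm.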

How the data were processed

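Gene counts and FPKM values of 48 mouse liver libraries were used as deposited. Per the labels, sequencing, mapping and quantification were done by a company, and the submitters' processing notes name the build mm10. Not given in the sources used here are the aligner, the counter and the use of strand. The deposited counts are whole numbers without normalization, and the deposited FPKM values equal count per gene length times 1 factor per library.

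From the counts, robust quasi-likelihood F tests were run with edgeR 4.0.16 (limma 3.58.1, R 4.3.3) after filterByExpr and TMM scaling, on 12 group means and on a model with a mean, cosine and sine of 24 h per arm. All 48 libraries shared 1 estimate of the spread, and p-values were adjusted by Benjamini-Hochberg over all 14555 genes tested. CPM values used TMM library sizes. Peaks and amplitudes came from least squares on log2 CPM with a prior count of 2. FPKM served for levels between members. Limits of a count of 0 cover counting error only. The procedure was tested on simulated data. Figures were drawn with matplotlib 3.10.9.

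A mitochondrial share was called high above the median plus 3 scaled MAD of its log2 over the libraries. Between the arms at each time, the deviations of same-numbered libraries correlated between -0.422 and 0.156. Other pairs of libraries were not compared in this way, so whether replicate numbers mark pairs or batches was not tested. No libraries were alike within sampling noise (chi-square per gene of 13.8 to 242 over 72 pairs).

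The members and all gene lists were chosen with earlier results of these data known. Members given in full were those called between arms, those with the smallest p for rhythm in each arm, the 6 highest and 4 lowest by FPKM, and up to 3 per time with the smallest p between arms. Alternatives included DESeq2 1.42.0, limma-voom, other scalings and filters, a replicate block, the mitochondrial share and leaving out libraries. For 1 member, kept in all counts and medians, no values of its own are reported here, and it is left out of the figures.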

Additional observations from a re-analysis of the deposited data

Results flagged for a closer look

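Both arms were read at each time for the members named there with the smallest p between arms. Of these 36 groups of 4 libraries, 3 had 1 library far from the others, and chance flags about 1 in 20 groups. They were Slc25a1 in phase shift ZT0 replicate 1 at 525 CPM, and, both in phase shift ZT16 replicate 2, Slc25a51 at 125 CPM and Slc25a22 at 348 CPM. The first of these libraries had a mitochondrial share of 19.9%. Slc25a45 differed between the arms in its rhythm (edgeR adjusted p = 0.0467) and in its time course (edgeR adjusted p = 0.0384).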

How the results depend on the processing

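The count of members called at ZT4 became 1 with the mitochondrial share as a covariate. At ZT8 it became 1 with that covariate, with a mean count of 50 or more and with DESeq2, and ran from 0 to 1 when single libraries were left out. In all of these the member was Slc25a45. It was called at ZT8 without control ZT8 replicate 1 (edgeR adjusted p = 0.0311) or replicate 4 (adjusted p = 0.0489). For the difference of rhythm the count was 0 without a filter on low counts, with limma-voom, with the replicate block and without the 7 high-share libraries, and 2 with DESeq2, which added Slc25a1 (adjusted p = 0.0496). For the time course it was 0 with limma-voom, with the replicate block and without those libraries, and 2 with DESeq2, which added Slc25a51 (adjusted p = 0.0327). Both counts ran from 0 to 1 when single libraries were left out. With the replicate block Slc25a45 had an edgeR adjusted p of 0.0604 for rhythm and 0.0588 for the time course. Whether the numbers mark pairs or batches was not tested. Rhythmic members in control ran from 11 to 20 when single libraries were left out, the lowest without control ZT12 replicate 2, and in the phase shift arm from 15 to 18. Over all genes these calls ran from 3034 to 4395 in control and from 3733 to 4639 in the phase shift arm. Of 1837 alternative values of 45 results on single members, 1772 stayed on their side of the threshold, 59 lost the call, 6 gained it and 0 changed sign. Of the lost calls, 31 were of the rhythm difference and 23 of the time course difference of Slc25a45, each of 56 alternatives. Results not called in the main fit had no call to lose. The causes were not tested. With 4 libraries per group, and members as low as a mean count of 20.4, small differences were not detectable.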
